A study of Homo sapiens with 3 samples.

Results

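The mixed-lineage leukaemia gene KMT2A, its fusion partners and the cofactors they use were examined in chromatin of THP1, an established human monocytic leukaemia line that carries a KMT2A-MLLT3 fusion. The set held 10 genes of the 20037 protein-coding gene records on the primary chromosomes of hg38: KMT2A, MLLT1, MLLT3, MLLT10, MEIS1, PBX3, DOT1L, MEN1, AFF1 and AFF4. Members were chosen by name, and the peaks counted for each were those that shared at least 1 base with its record or with the 50 kb on either side, here called its window. All cells were wild-type THP1 treated with the phorbol ester PMA for 24 h, which drives this line towards a macrophage-like state. There was 1 chromatin immunoprecipitation library for H3K27ac, histone H3 acetylated at lysine 27, 1 library for the deacetylase SIRT1 (antibodies ab4729 and 8469S), and 1 input, not used here. Since each antibody had a single library, no difference had a replicate check, and intervals below are 95% exact Poisson or binomial intervals that cover counting error only.

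KMT2A is a histone H3 lysine 4 methyltransferase that binds unmethylated CpG-rich DNA through its CXXC domain and docks on chromatin with menin, the product of MEN1. In leukaemia its start-side part is joined to the far part of a partner such as MLLT3 (AF9), MLLT1 (ENL), AFF1 (AF4) or MLLT10 (AF10), proteins that work with the elongation scaffold AFF4 or with DOT1L, the histone H3 lysine 79 methyltransferase. HOXA9, MEIS1 and PBX3 are homeobox genes that such fusions are known to keep active in many leukaemias. The peak lists refer to the reference genome, so a peak at KMT2A or MLLT3 cannot be assigned to a fused or an unfused copy.

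The cell label was checked on marker genes. H3K27ac lay within 1 kb of a gene end in 11 of 12 macrophage markers, with LYZ the exception, and in 1 of 12 markers of other cells, which was SYN1. The H3K27ac list held 48735 peaks on the primary chromosomes with a median of 15 fragments at the summit. The SIRT1 list held 95517 peaks, of which 39.7% rested on 2 fragments and 44.7% on 3.

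RefSeq promoters (GRCh38.p14), running from 250 bases before to 50 bases after a start, were matched for 9 of the 10 members, with 12 starts in all; DOT1L had no entry. The sequences below are shown because KMT2A reads CpG-rich DNA and because the starts of MLLT3 and MEIS1, unlike those of the other members, carried no H3K27ac peak. Each is written 5′ to 3′ along the gene, and capitals mark CpG dinucleotides.
KMT2A, chr11:118436242-118436541, plus strand: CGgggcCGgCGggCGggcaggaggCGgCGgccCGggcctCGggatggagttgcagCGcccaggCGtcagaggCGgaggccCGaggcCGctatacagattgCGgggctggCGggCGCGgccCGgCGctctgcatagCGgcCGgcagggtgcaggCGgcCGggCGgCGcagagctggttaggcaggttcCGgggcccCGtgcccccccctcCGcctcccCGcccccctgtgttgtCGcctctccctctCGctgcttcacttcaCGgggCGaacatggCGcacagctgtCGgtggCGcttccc
MLLT3, chr9:20622450-20622749, minus strand: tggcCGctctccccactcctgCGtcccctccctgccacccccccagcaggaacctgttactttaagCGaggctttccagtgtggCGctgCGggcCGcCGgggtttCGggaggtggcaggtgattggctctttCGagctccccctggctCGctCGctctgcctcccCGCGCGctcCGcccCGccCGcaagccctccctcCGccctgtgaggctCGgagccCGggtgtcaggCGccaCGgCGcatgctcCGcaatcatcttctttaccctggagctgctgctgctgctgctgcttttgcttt
MEIS1, chr2:66434875-66435174, plus strand: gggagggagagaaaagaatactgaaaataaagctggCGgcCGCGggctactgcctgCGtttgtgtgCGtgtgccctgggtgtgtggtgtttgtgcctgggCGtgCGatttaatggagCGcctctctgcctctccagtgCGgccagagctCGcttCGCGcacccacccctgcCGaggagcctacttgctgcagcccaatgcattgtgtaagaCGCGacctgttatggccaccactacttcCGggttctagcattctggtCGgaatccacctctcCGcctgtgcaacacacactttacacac
AFF4, chr5:132963585-132963884, minus strand: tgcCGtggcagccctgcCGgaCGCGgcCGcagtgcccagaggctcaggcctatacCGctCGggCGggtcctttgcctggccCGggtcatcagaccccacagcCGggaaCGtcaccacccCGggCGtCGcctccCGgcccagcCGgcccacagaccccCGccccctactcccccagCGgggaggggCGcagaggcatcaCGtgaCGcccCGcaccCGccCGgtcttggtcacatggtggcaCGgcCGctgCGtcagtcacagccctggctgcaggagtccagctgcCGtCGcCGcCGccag
AFF1 upstream start, chr4:86934761-86935060, plus strand: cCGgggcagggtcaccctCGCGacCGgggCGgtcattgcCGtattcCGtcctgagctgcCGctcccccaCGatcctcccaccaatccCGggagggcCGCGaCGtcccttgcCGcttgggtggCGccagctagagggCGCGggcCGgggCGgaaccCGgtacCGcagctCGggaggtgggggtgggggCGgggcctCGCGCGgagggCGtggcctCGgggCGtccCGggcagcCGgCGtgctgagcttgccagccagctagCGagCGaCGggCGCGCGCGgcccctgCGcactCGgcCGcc
AFF1 downstream start, chr4:87007021-87007320, plus strand: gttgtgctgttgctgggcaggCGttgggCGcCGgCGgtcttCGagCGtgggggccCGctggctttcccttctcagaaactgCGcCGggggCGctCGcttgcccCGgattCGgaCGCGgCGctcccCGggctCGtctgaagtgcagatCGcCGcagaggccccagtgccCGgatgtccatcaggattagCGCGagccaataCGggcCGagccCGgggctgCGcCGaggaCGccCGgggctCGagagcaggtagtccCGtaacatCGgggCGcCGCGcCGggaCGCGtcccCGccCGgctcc

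KMT2A had 36 CpG in its 300 bases, AFF4 had 31, and the AFF1 starts had 42 and 41. MLLT3 had 24 and MEIS1 had 18, against a median of 21 over 22199 promoters of protein-coding genes. Of the 9714 promoters with at least as many CpG as MLLT3, 77.4% had an H3K27ac peak within 1 kb of the start, and of the 12624 with at least as many as MEIS1, 76.3% did. The median was 26 CpG in promoters with the mark and 8 in those without, so MLLT3 and MEIS1 lay between these medians. Of the 12 member promoters, the one with the fewest CpG was the upstream start of MLLT10, with 15, and it lay wholly inside an H3K27ac peak.

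**Figure D1:**
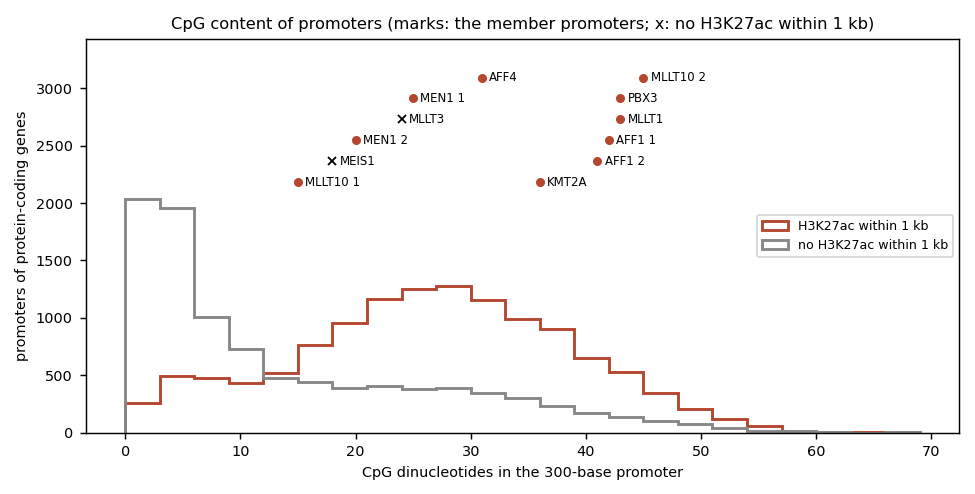
Number of promoters of protein-coding genes by CpG dinucleotides in 300 bases, for starts with (red line) and without (grey line) an H3K27ac peak within 1 kb; marks show the 12 member promoters at their CpG count, and their height has no meaning. The crosses, MLLT3 at 24 and MEIS1 at 18, are the 2 member promoters without the mark.

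Short motifs were looked for in the same promoters on both strands. The core of the NF-Y site, CCAAT, was in MLLT1, MLLT3, MEIS1, the upstream start of MLLT10, and both starts of MEN1 and AFF1. It was in 34.7% of all promoters. The promoters of the MEN1 starts overlap, and their CCAAT was the same site. The MEIS core TGACAG was in MLLT1, PBX3 and 1 start of MEN1, and in 14.8% of all promoters. The ETS core CCGGAAG was in MEIS1, and in 12.8% of all promoters. TGATTNAT, a site of PBX with HOX proteins, and TATAAA were in none of the 12, and in 2.06% and 9.47% of all promoters.

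H3K27ac, which marks promoters and enhancers in use, was present at a gene end (within 1 kb) of 8 of the 10 members, against 56.7% of all protein-coding genes. It was found inside the record of the same 8, against 62.4%, and anywhere in the window of the same 8, against 83%. Among records of 60 to 300 kb, the range that holds every member but MEN1, the share with an acetylated end was 61.5% and 7 of 9 members had one, and the share with a peak in the record was 74.7%, again with 7 of 9 members. The 10 windows held 93 H3K27ac peaks, 46 of them in a record and 47 in a flank. Fold, the peak caller's ratio of fragments at the summit to the local background, ran from 2.63 to 148 in these windows with a median of 6.53. Of the 47 flank peaks, 19 lay at an end of another gene.

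At the fused gene KMT2A (chromosome 11, 118436492 to 118526832), the mark lay at the start alone within the record. The main peak (118436443 to 118437448) had a fold of 24.0 on 62 fragments, and its summit lay 416 bp inside the gene. A small peak from 118435858 to 118436154 had a fold of 4.89 on 15 fragments and ended 288 bp short of the first. The uncovered stretch held most of the promoter printed above: 33% of its 300 bases lay in a peak. No other H3K27ac peak lay in the 90.3-kb record. The highest fold of the window, 61.0, was at an end of ARCN1, 136 kb from the KMT2A start. SIRT1 peaks in the record numbered 2, with folds of 2.94 and 2.81 at 49.4 and 58.8 kb from the start, on 3 fragments each. A further 4 lay beyond the far end and 0 before the start.

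MLLT3, the partner gene of this line (chromosome 9, 20341669 to 20622499, minus strand), had 0 H3K27ac peaks in its 381-kb window. The upper bound of that count was 0.969 peaks per 100 kb. Such an empty window was found for 17% of all genes and for 13.7% of records of 60 to 300 kb. The nearest H3K27ac peak on the start side lay 61.7 kb from the record, at 20684176 to 20685484 inside FOCAD, with a fold of 23.8. On the far side the nearest lay 960 kb away at the ribosomal protein gene RPS6, from 19378449 to 19381276, with a fold of 26.9. The interval between these peaks was 1303 kb long.

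Among the YEATS-domain partners, which read acylated histones, MLLT1 is the paralogue of MLLT3 (chromosome 19, 6210381 to 6279975) and it was acetylated. Its start peak ran from 6278671 to 6279683 with a fold of 22.5 on 59 fragments and a summit 493 bp inside the gene. The peak stopped short of the start, so 0 of the 300 promoter bases were covered. A weaker peak with a fold of 3.98 on 12 fragments lay 5.82 kb inside.

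MLLT10, which recruits DOT1L (chromosome 10, 21533756 to 21743630), had the mark at its start and upstream of it. One peak from 21532980 to 21536118 covered both of its starts, 476 bp apart, with a fold of 41.4 on 121 fragments. Before the start lay 8 more peaks, the strongest from 21524665 to 21528254 with a fold of 45.9, at an end of SKIDA1. Peaks at 21507915 to 21510977 (fold 27.1) and 21515787 to 21518403 (fold 20.6) lay 23.7 and 16.4 kb before the start. The remaining record held 1 peak, 7.29 kb inside with a fold of 4.65. All 10 peaks of the window belonged to 1 domain of 45.6 kb when peaks within 12.5 kb were joined, ranked 519 of 19490 by covered bases.

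AFF1, a scaffold of the elongation complex (chromosome 4, 86935011 to 87141039), was acetylated at both of its annotated starts, which lie 72.3 kb apart. At the upstream start the peak (86934050 to 86937540) reached a fold of 30.9 (interval 25.4 to 37.2) on 110 fragments; ends of C4orf36 and the antisense gene AFF1-AS1 lay in it too. At the downstream start the peak (87005987 to 87008507) reached 31.3 (26.3 to 37.1) on 132 fragments. The intervals overlapped almost completely, so no difference between the starts was detectable at this depth. The flank before the upstream start held 7 weaker peaks, with a highest fold of 11.2, all inside the C4orf36 record.

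At AFF4, the other elongation scaffold (chromosome 5, 132875395 to 132963634), the start peak from 132962054 to 132964429 had a fold of 78.4 on 230 fragments. It was the only H3K27ac peak in the record, it covered the whole printed promoter, and an end of the divergent gene AFF4-DT lay in it. A fold at least this high at a gene end was found for 2.74% of the genes with a peak there. AFF4 and KMT2A had a similar layout, with the mark at the start alone, at different folds.

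DOT1L (chromosome 19, 2163933 to 2232578) was acetylated from end to end. Its record held 18 H3K27ac peaks that covered 82.3% of its bases, the highest share of the 4606 records of 60 to 300 kb (1 record, or 0.0217%, reached it: DOT1L itself). The strongest peak spanned 12715 bp at the end with the lower coordinate, from 2162114 to 2174828, with a fold of 148 on 362 fragments. An end of AP3D1 lay in the same peak, so the signal there cannot be assigned to 1 of these genes. A fold at least this high at a gene end was found for 0.123% of genes with a peak there. Another broad peak of 13476 bp ran from 2178795 to 2192270 with a fold of 36.6. The 15 peaks of the record away from both ends had folds from 2.63 to 36.6 with a median of 8.01. The antisense gene DOT1L-AS1 and, at the higher coordinates, PLEKHJ1 overlap the record.

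In the DOT1L window 45.2% of bases were covered, which 0.115% of all genes reached. Joined peaks formed a domain from 2149175 to 2240675, 91.5 kb long, with 26 peaks and 68.7 kb covered, ranked 8 of 19490 by covered bases. DOT1L alone gave 50.6% of the H3K27ac-covered bases of the 10 windows. The flank at the higher coordinates also held a peak with a fold of 114 at OAZ1, from 2268990 to 2272187.

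MEN1, the smallest member (chromosome 11, 64803516 to 64811294), had the weakest acetylated start. The peak from 64810244 to 64810748 had a fold of 7.36 on 24 fragments and overlapped both of its starts, which lie 135 bp apart. At the opposite end a broader peak from 64800026 to 64805014 had a fold of 14.8 on 33 fragments and also lay at an end of MAP4K2. The highest fold of the window, 67.9, was at SF1, 33.0 kb from the MEN1 start. Of 5 protein-coding neighbours in the window 3 had an acetylated end, and only 2 of the 13 peaks counted for MEN1 overlapped its own record.

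The homeobox cofactors differed from each other. PBX3 (chromosome 9, 125747373 to 125967377) had 17 H3K27ac peaks in its record, while MEIS1 (chromosome 2, 66435125 to 66573869) had 0 in its window. At PBX3 the start peak from 125746166 to 125749501 had a fold of 33.4 on 195 fragments, and an end of the divergent gene PBX3-DT lay in it. A peak deep inside the gene, from 125888862 to 125890578 and 143 kb from the start of the record, had the same fold of 33.4 on 76 fragments. Another at 125838781 to 125841921, 92.4 kb inside, had a fold of 18.6. The other 14 peaks away from the ends had folds between 3.06 and 7.55. At least 10 H3K27ac peaks in the record were found for 2 of 9 members of 60 to 300 kb, PBX3 and DOT1L, and for 7.1% of all such records.

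Around MEIS1 the H3K27ac list was empty over 1820 kb. The nearest peaks lay 858 kb on the start side, with a fold of 5.15 on 12 fragments, and 823 kb on the far side at ETAA1, with a fold of 14.9. No other protein-coding record lay in the MEIS1 window. MLLT3 and MEIS1 were alike in lacking the mark at the start, in the record and in both flanks.

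**Figure D2:**
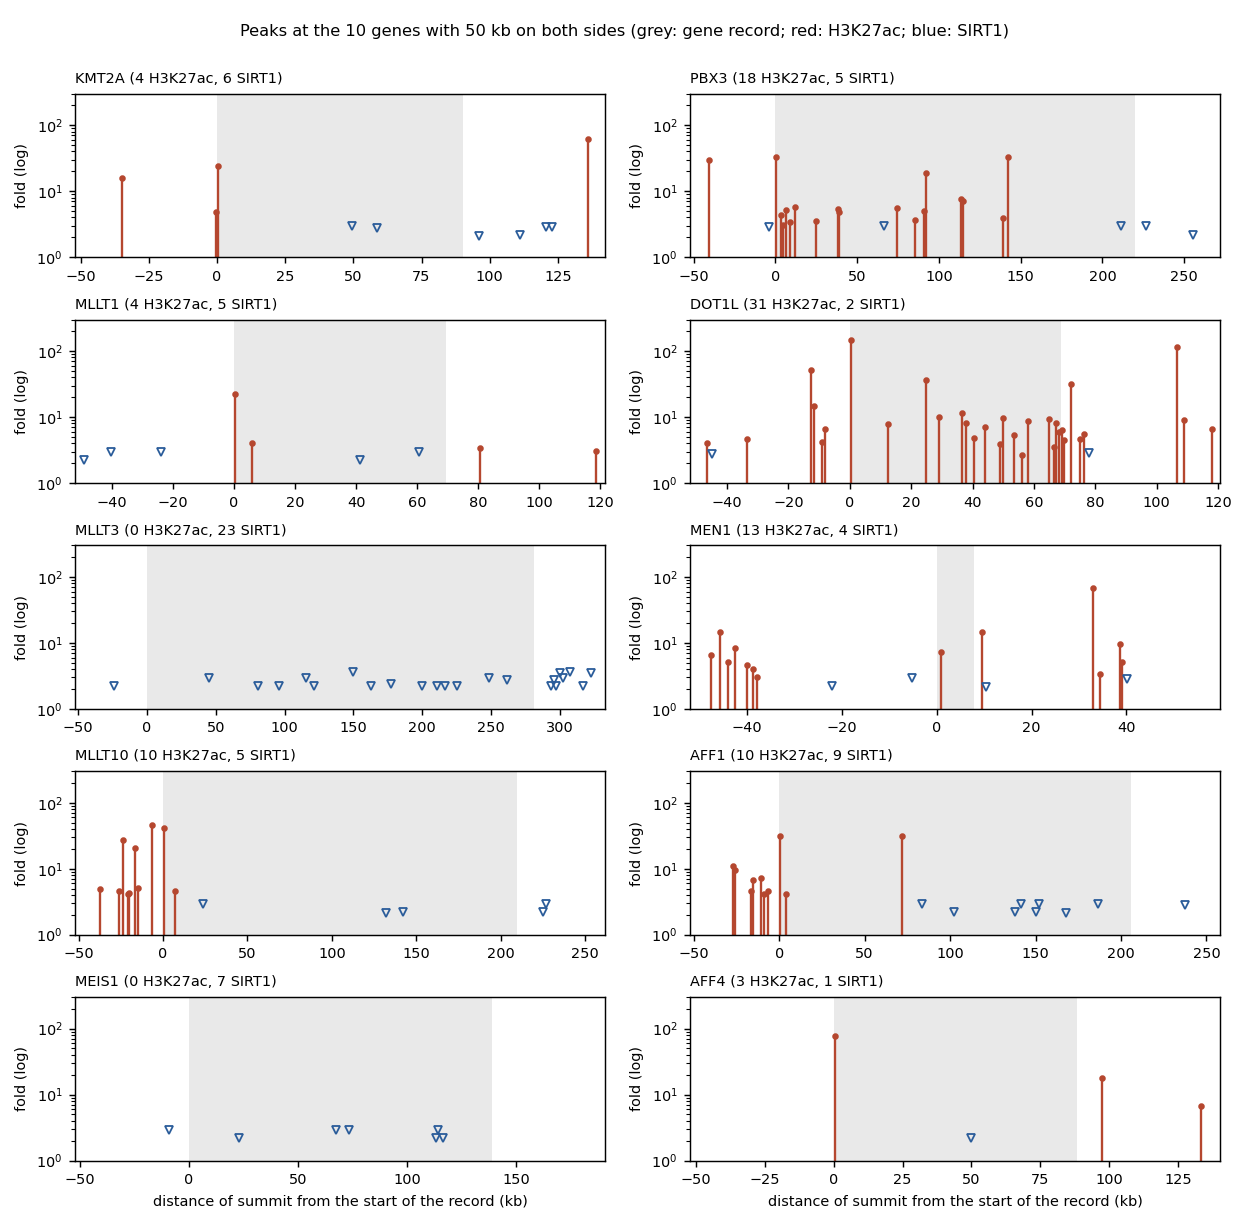
Position (kb from the start of the record, positive along the gene; DOT1L from its end with the lower coordinate) and fold (log axis) of each peak summit in the 10 windows, with red stems for H3K27ac, blue triangles for SIRT1 and grey for the record. KMT2A and AFF4 have H3K27ac at the start only within the record, DOT1L along its whole length, and MLLT3 and MEIS1 none.

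Ordered by fold at the start (for DOT1L, at its end with the lower coordinate), DOT1L was highest at 148 (133 to 164), followed by AFF4 at 78.4 (68.7 to 89.2) and MLLT10 at 41.4 (34.4 to 49.4). Then came PBX3 at 33.4 (28.9 to 38.4), AFF1 at 31.3, KMT2A at 24.0 (18.5 to 30.7), MLLT1 at 22.5 (17.2 to 28.9) and MEN1 at 7.36 (4.82 to 10.8). From MLLT10 down to MLLT1, neighbours in this order had overlapping intervals. DOT1L, AFF4 and MEN1 did not overlap their neighbours. The median over all 11354 genes with a peak at an end was 19.0, with quartiles of 10.0 and 33.3, taking the highest fold at either end. KMT2A and MLLT1 sat near the middle. The MEN1 start alone lay below the lower quartile, but the like measure, the strongest end peak of MEN1, lay above it at 14.8. Of the 11354 genes 39.3% had a fold no higher than 14.8.

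**Figure D3:**
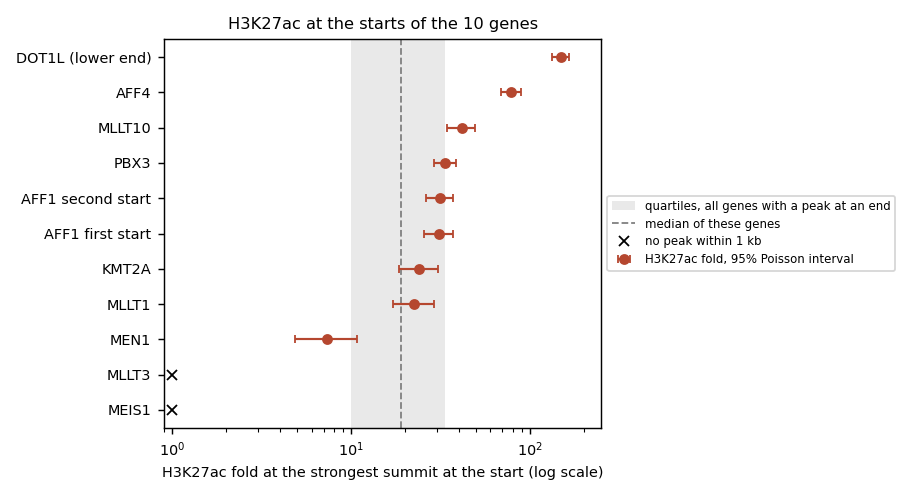
H3K27ac fold (log axis) of the strongest peak at each start, or for DOT1L at its end with the lower coordinate, with its 95% Poisson interval from the fragments at the summit. The grey band and dashed line are the quartiles and median of all genes with a peak at an end, each taken at its stronger end. Crosses at the left edge mark MLLT3 and MEIS1, which have no peak there.

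SIRT1, an NAD-dependent deacetylase that can remove acetyl groups from histones, had 0 peaks at a gene end of the 10 members, against 10.8% of all genes. At starts in the promoter table it had 0 of 9, against 5.11%. Of the 12 starts in that table, PBX3 had the closest SIRT1 summit, 4.89 kb away, and the upstream start of AFF1 the most distant, 65.0 kb away. A SIRT1 peak lay in the record of 8 of the 10 members, against 50.7% of all genes. Among records of 60 to 300 kb the share was 89.8%, and 8 of 9 members had one. The members with no SIRT1 peak in the record were DOT1L and MEN1. All 10 windows held at least 1, against 92.7%.

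The 67 SIRT1 peaks of the windows were weak. At the summit 30 rested on 2 fragments, 33 on 3, 3 on 4 and 1 on 5. Folds ran from 2.10 to 3.67 with a median of 2.78. The highest −log10 q was 0.175 and 63 peaks had a −log10 q of 0, so none passed a q of 0.05. This weakness was a trait of the whole SIRT1 list, in which 136 of 95517 peaks passed and the median fold was also 2.78. Peaks on 4 or more fragments made up 5.97% of the 67, against 15.6% of the whole list. The text below therefore describes where low-count peaks were listed.

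One of the 67, or 1.49% (0.0378 to 8.04), overlapped an H3K27ac peak, against 0.745% of all SIRT1 peaks. It lay in the MEN1 window from 64800731 to 64800994, beyond the far end of the MEN1 record and inside MAP4K2. The H3K27ac peak around it was the broad one at an end of both genes. This SIRT1 peak had a fold of 2.17 on 2 fragments. The interval includes the share over all peaks.

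By gene, MLLT3 had the most SIRT1 peaks, 23 in the window and 14 in the record. That was 6.04 per 100 kb (3.83 to 9.06), a density reached by 6.46% of all genes, by 4.58% of records of 60 to 300 kb, and by 16.5% of the 629 such records with no H3K27ac in the window. AFF1 followed with 9 peaks, or 2.94 per 100 kb (1.34 to 5.58), of which 8 lay in the record. All 8 were beyond its downstream start. MEIS1 had 7, or 2.93 per 100 kb (1.18 to 6.04), close to the median of 2.74 over all genes.

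KMT2A had 6 SIRT1 peaks, and MLLT1, MLLT10 and PBX3 had 5 each. MEN1 had 4, DOT1L had 2 and AFF4 had 1, at 0.531 per 100 kb (0.013 to 2.96). Intervals of all members other than MLLT3 overlapped each other. The MLLT3 interval lay above those of AFF4, MLLT10 and PBX3 and overlapped the others. The 8 acetylated members together had 37 peaks, or 2.10 per 100 kb, and MLLT3 and MEIS1 together had 30, or 4.84. Of the 30 peaks, 23 were at MLLT3. MEIS1 alone, at 2.93 per 100 kb, lay just below AFF1 (2.94), MLLT1 (2.95) and KMT2A (3.15) and below MEN1 (3.71). The other acetylated members were lower than MEIS1.

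**Figure D4:**
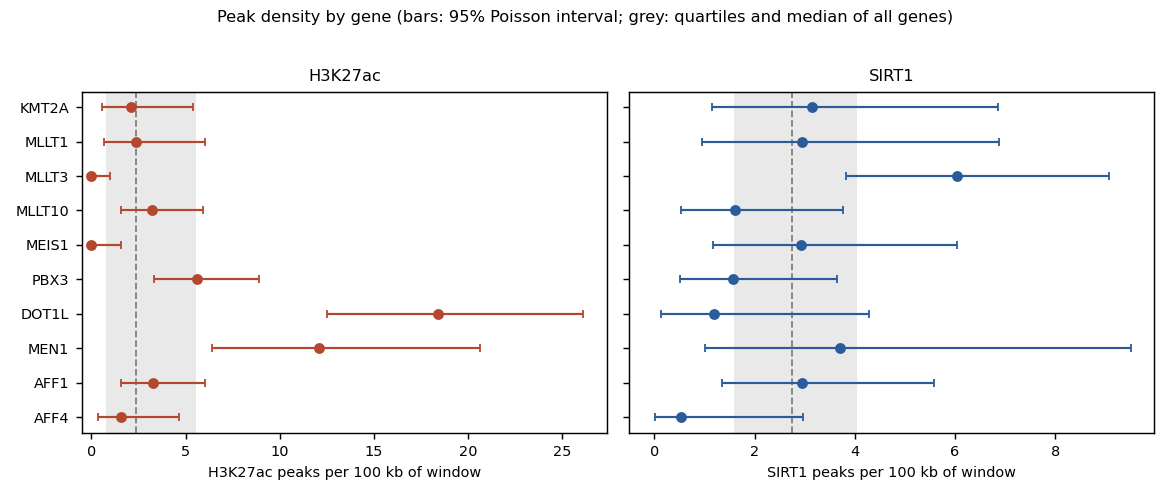
Peaks per 100 kb of window for each member, H3K27ac at left and SIRT1 at right, with 95% Poisson intervals; the grey band and dashed line are the quartiles and median of all protein-coding genes. DOT1L is highest for H3K27ac at 18.4 and MLLT3 for SIRT1 at 6.04, where MLLT3 has 0 H3K27ac peaks.

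In the MLLT3 window more SIRT1 peaks lay on the far side of the midpoint than on the start side. The part of the window on the start side of its midpoint had 6 and the part on the far side 17, or 73.9% (51.6 to 89.8). Departure from an even spread was not tested. A far-side excess was not particular to MLLT3. The far-side share was 100% (54.1 to 100) of the 6 peaks at KMT2A, 80% (28.4 to 99.5) at MLLT10 and 77.8% (40.0 to 97.2) at AFF1. It was 100% of the 1 peak at AFF4, 60% at PBX3, 57.1% at MEIS1, 50% at DOT1L and MEN1, and 40% at MLLT1. All 4 peaks of the 10 windows on 4 or more fragments lay on the far side at MLLT3, at 20299576 to 20299885, 20314616 to 20315565, 20321992 to 20322258 and 20472272 to 20472699, with folds of 3.46, 3.62, 3.47 and 3.67. The 44 SIRT1 peaks of the other 9 windows all rested on 2 or 3 fragments. The MLLT3 window thus had 4 of 23 peaks on 4 or more fragments, against 15.6% of the whole SIRT1 list.

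SIRT1 peaks were also counted outside the window, in the 550 kb next to each of its edges. On the start side of MLLT3 there were 19, or 3.45 per 100 kb (2.08 to 5.39), and on the far side 49, or 8.91 per 100 kb (6.59 to 11.8). Of these, 0 and 11 rested on 4 or more fragments, or 0% and 22.4%, against 15.6% of the whole SIRT1 list. H3K27ac peaks numbered 7 and 0 in the same stretches. The recovered local background of the SIRT1 peaks, in units of the lowest in the list, had a median of 1 on the start side and 1.07 on the far side, and 68.4% and 34.7% of the peaks were at that lowest value. Farther out on the start side, the 3 bins of 100 kb from 1000 to 700 kb before the start held 0 SIRT1 and 0 H3K27ac peaks. The far part of MLLT3 is the one joined to KMT2A in the fusion. Copy number was not analysed here, and the part of the local background in these counts was not tested. At least 8 SIRT1 peaks were found in 5.20% of all 100-kb bins with a peak and in 11.3% of those of chromosome 9 without H3K27ac.

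The same stretches around KMT2A had 19 and 12 SIRT1 peaks, or 3.45 (2.08 to 5.39) and 2.18 (1.13 to 3.81) per 100 kb, and those around MEIS1 had 22 and 29, or 4 (2.51 to 6.06) and 5.27 (3.53 to 7.57). At both genes the intervals of the sides overlapped, whereas at MLLT3 they did not. SIRT1 peaks on 4 or more fragments numbered 2 and 3 around KMT2A (10.5% and 25%) and 3 and 1 around MEIS1 (13.6% and 3.45%). H3K27ac peaks numbered 28 and 46 around KMT2A and 0 and 0 around MEIS1.

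**Figure D5:**
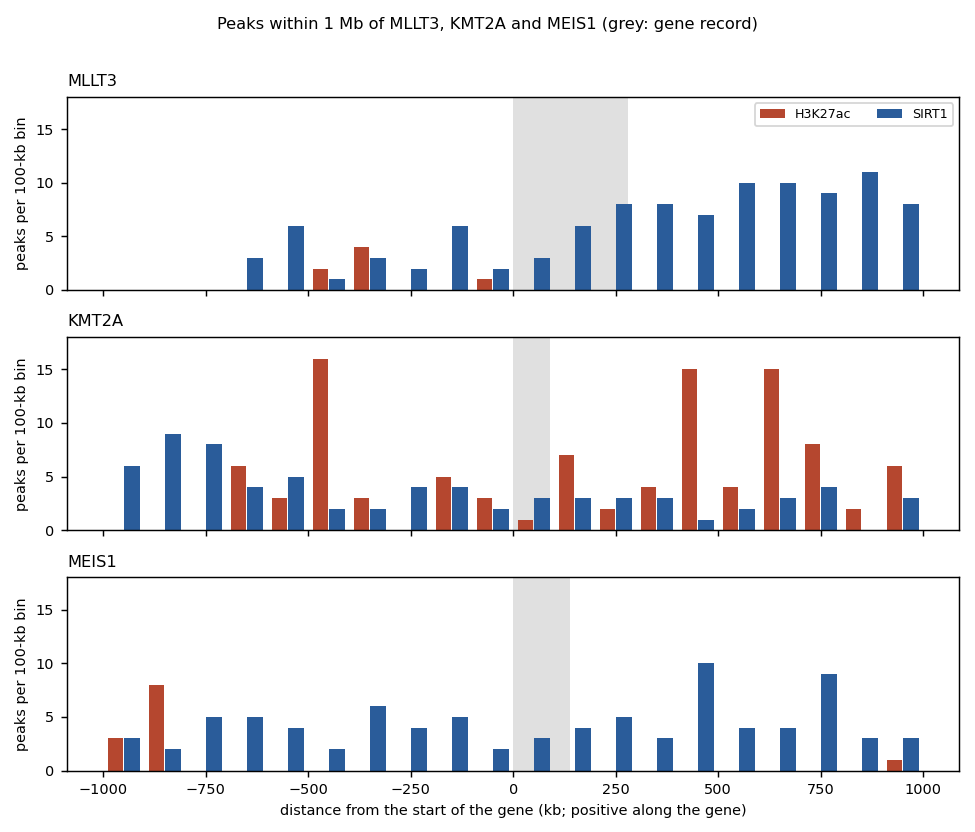
Number of peaks in 100-kb bins by distance from the start (kb, positive along the gene) of MLLT3, KMT2A and MEIS1, H3K27ac in red and SIRT1 in blue, with the record in grey. Beyond the far end of MLLT3 the bins hold 7 to 11 SIRT1 peaks and no H3K27ac; the bins next to KMT2A hold both, and the H3K27ac summit nearest to the MEIS1 start is 858 kb away.

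Genes related to the members were described for context from fixed lists. In a list of 13 elongation complex genes and further MLL fusion partners, 12 had H3K27ac at a gene end, against 56.7% of all protein-coding genes. The median fold among the 12 was 45.1, and the partner gene MLLT11 had 89.0. Of 14 menin and COMPASS complex genes 13 had the mark at an end, with a median of 39.1. The methyltransferase family gene KMT2E had 107 and HCFC1 72.3. Of 23 fusion targets and homeobox partners 16 had it there, against the same 56.7%, with a median of 36.2. ZEB2 had 145 and CPEB2 113. The median of the 8 acetylated members was 32.2, and that of all genes with a peak at an end 19.0.

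HOXA9 and HOXA10, homeobox genes that MLL fusions are known to drive, had folds of 28.7 and 30.0 at a gene end, HOXA5 had 6.79, and HOXA7, the other HOXA gene of the list, had no H3K27ac peak at an end. A SIRT1 peak at a gene end was listed for RBBP5, a COMPASS core subunit, and for PBX4, each with a fold of 2.94. None was listed for the elongation and partner genes. Among paralogues of MEIS1 and PBX3, MEIS2 (25.6), PBX2 (32.5) and PBX4 (5.61) were acetylated at an end, and MEIS3 was not.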

How the data were processed

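Peaks were called with MACS2 on hg38 per the submitters' processing notes; the aligner, versions and control: not given in the sources used here. The fold (a ratio to local background at the summit), −log10 q and −log10 p were deposited by the authors and used within each list. The deposited score was not used. The distance of the summit from the peak start was also deposited. Fragments at the summit were recovered as the whole number whose Poisson tail gives the p when the fold has a pseudocount of 1 in both terms. A whole number within 0.001 of the −log10 p was found for 99.99% of H3K27ac and 100% of SIRT1 peaks; tested on simulated data, it got 100% of 2000 and 1970 peaks right. The lowest background was 0.937 fragments for H3K27ac and 0.362 for SIRT1. Read totals: not given in the sources used here.

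Overlap meant 1 shared base. No test was run. The members and lists were chosen with earlier results of these data known. Named genes were the members, the 2 highest per list and those with SIRT1 at a gene end, apart from results not reported here; the HOXA genes and the paralogues were named after their values were seen, as were the record range of 60 to 300 kb and the stretches of 550 kb. The 12 macrophage markers and 12 other markers served as a label check. Alternatives were the flank, the gene end window, fold, q, fragments and overlap. Tools were scipy 1.17.1, pandas 2.3.3, numpy 2.4.6, matplotlib 3.10.9 and Python 3.11.15.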

Additional observations from a re-analysis of the deposited data

How the results depend on the processing

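The count of 8 members with H3K27ac at a gene end and in the record held under every alternative run for it. These were gene end windows of 500 and 2500 bp, a fold of at least 4, a −log10 q of at least 5, and at least 10 H3K27ac fragments. The count of 0 members with SIRT1 at a gene end also held with the window of 2500 bp. The window of 500 bp and the limits on fold, q and fragments (at least 4 for SIRT1) only remove peaks. They could therefore not change a count of 0. A flank of 0 kb left 46 H3K27ac and 38 SIRT1 peaks, and a flank of 100 kb gave 143 H3K27ac peaks, by construction. With a fold of at least 4, and likewise with a −log10 q of at least 5, 0 SIRT1 peaks were left in the windows and 0 members had one in the record, so no overlap could be computed. SIRT1 peaks on at least 4 fragments numbered 4, with 1 member and 0% overlapping H3K27ac. Without the MLLT3 window, which was added after seeing the data, the SIRT1 count was 44. No paired analysis was possible because no replicate groups were compared. All SIRT1 statements rest on 2 to 5 fragments a peak.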

Other observations

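Some genes of the context lists had no H3K27ac at a gene end and yet had it inside the record. MEF2C, a MADS-box transcription factor gene, had 19 H3K27ac peaks in its record, RUNX2, a Runt-domain factor gene, had 14, and AFF3, a paralogue of AFF1 and AFF4, had 8. SIRT1 peaks in these records numbered 4, 5 and 14. KDM6A and EYA1 had 0 H3K27ac peaks in their windows, as MLLT3 and MEIS1 did. The SIRT1 density was 0.294 per 100 kb at KDM6A and 2.22 at EYA1. These genes were picked after their values were seen.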
